A study of Mus musculus with 32 samples.

Results

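Deoxynucleoside triphosphates (dNTPs) are the building blocks of DNA. The genes followed here are 8 genes for enzymes that make dNTPs or their precursors, Rrm1, Rrm2, Rrm2b, Tyms, Dtymk, Tk1, Dck and Dut, together with Samhd1, whose product breaks dNTPs down. The 9 genes were fixed by name and matched to the gene identifiers of the tables. All 9 had a row among the 23035 genes of the footprint tables and among the 39017 genes of the total RNA tables.

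The data come from Ribo-Seq, which sequences the mRNA fragments covered by ribosomes (footprints) beside the total RNA of the same lysates. Neural stem cells (NSCs) were grown ex vivo from the ventricular-subventricular zone (vSVZ) of C57BL/6 mice aged 8 to 12 weeks and carried no genetic change named in the labels. They received vehicle or IFN-β, a type I interferon, for 2 h or 14 h, and all 4 groups had cycloheximide added shortly before lysis. Each group held 4 cultures, which the study describes as taken from different mice, and from each lysate a footprint library and a total RNA library were made. The cells are a proliferating culture and not stem cells in their niche.

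Ribonucleotide reductase, made of the large subunit Rrm1 and a small subunit that is Rrm2 or Rrm2b, converts ribonucleotides to deoxyribonucleotides. Rrm2 is the small subunit of dividing cells, and Rrm2b is a p53-inducible small subunit known for dNTP supply outside S phase. Tyms methylates dUMP to dTMP, Dut supplies that dUMP by cleaving dUTP, and Dtymk phosphorylates dTMP. Tk1 and Dck recover thymidine and deoxycytidine from outside the pathway. Samhd1 is a dNTP triphosphohydrolase and restricts viruses that need dNTPs, and it is known as an interferon-inducible gene in several cell types.

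The genes lie apart in the mouse genome (GRCm38, GENCODE annotation). Rrm1 is at chr7:102441695-102469771, Rrm2 at chr12:24708241-24714146 and Rrm2b at chr15:37923952-37961318. Tyms is at chr5:30058202-30073617, Dtymk at chr1:93792576-93801934 and Tk1 at chr11:117815526-117826092. Dck is at chr5:88764996-88783281, Dut at chr2:125247190-125258608 and Samhd1 at chr2:157097533-157135265. Footprints were counted in the coding exons of each gene. Of the 30-base words of the coding sequence, 41.3% of Rrm2b, 27.8% of Tyms, 27.5% of Rrm2, 17.9% of Tk1 and 2.4% of Dck also occur in transcripts of pseudogenes or other genes, so the assignment of their reads is uncertain to that extent. For Rrm1, Dut, Dtymk and Samhd1 no such word was found.

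Promoter sequence was at hand in RefSeq (GRCm38.p6) for 8 of the 9 genes, all but Rrm2b. The 250 bases upstream of each start were searched on both strands for 5 short motifs. The E2F core was searched as TTGGCGC, with TTCCCGC counted as another form of the core, and likewise the letters TTCGCGC as well as the form spelled TTGCCGC. The other motifs were the CCAAT box, the cell cycle homology element with the letters TTTGAA, the interferon-stimulated response element written as GAAANNGAAA and the interferon-gamma activated sequence (GAS) written as TTCNNNGAA. The windows below hold matches in Rrm1 (for CCAAT the nearer of 2 to the start), Rrm2 and Dtymk, which moved together in the footprints, and the match in Samhd1, which moved the other way. Letters are written 5′ to 3′ on the strand of the gene, with the match in capitals (on the opposite strand where it reads as the reverse complement).
Rrm1, E2F core, chr7:102441618-102441644 (plus strand): ggagaactcgTTCCCGCcaggtccgct
Rrm1, CCAAT, chr7:102441640-102441664 (plus strand): ccgctttcacCCAATgtggtggaaa
Rrm2, E2F core, chr12:24708009-24708035 (plus strand): accaacctcaGCGGCAAcgcccgcccg
Rrm2, CCAAT, chr12:24708194-24708218 (plus strand): tcagcggcgtCCAATgggaggcgag
Dtymk, E2F core, chr1:93801990-93802016 (minus strand): gttccgcgagTTGGCGCtcgctaaact
Dtymk, CCAAT, chr1:93802032-93802056 (minus strand): agtccttaagATTGGtgctcttcgg
Samhd1, GAS, chr2:157135313-157135341 (minus strand): acaccaccctTTCGGAGAAacacaagggc
The E2F core occurred in 3 of the 8 promoters and in 7.89% of all 32851 promoters, and CCAAT in the same 3 and in 33.8% of all. Tyms, Tk1, Dut and Dck, whose footprints fell as well at 14 h, had neither match. The GAS element occurred in 1 of the 8, Samhd1, and in 7.02% of all. TTTGAA occurred in 1 of the 8, Dck, and in 16% of all, and the interferon-stimulated response element in none of the 8 and in 2.98% of all. For Samhd1, Rrm2 and Dck the RefSeq start lies inside the gene span given above, so a part of the 250 bases searched lies within that span. For Tyms, Tk1 and Dut, which had no match, the place of the start is not given here. Bases further upstream were not searched. A match is a run of letters and was not tested as a binding site.

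Total counts per footprint library ranged from 4956144 to 9361609 at 2 h and from 2956297 to 10505108 at 14 h. Levels are given as CPM, the counts of a gene scaled to a common library total after TMM scaling of the library sizes. The 12 stem cell markers summed to between 11360 and 18210 CPM in every library. Vim, Fabp7 and Nes made up most of that sum, while Prom1 lay between 1.05 and 3.9 CPM. Gfap was low and uneven. With vehicle it lay between 0.68 and 113.4 CPM at 2 h and between 0.12 and 0.29 CPM at 14 h. With IFN-β it lay between 45.6 and 464.6 CPM at 2 h and between 0.98 and 2.01 CPM at 14 h. The sum therefore does not describe each marker. Markers of microglia and macrophages summed to between 15.99 and 46.04 CPM, with Aif1, C1qa, C1qc, Cx3cr1, Trem2 and Tyrobp at 0 in all 16 libraries. At 2 h the cultures numbered 3 stood apart in both groups. The SD over genes of their log2 difference from the mean of the other 3 libraries was 0.54 with vehicle and 0.52 with IFN-β, against 0.22 to 0.31 for the other 2 h libraries. 

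After 14 h of IFN-β, footprints fell on 7 of the 8 synthesis genes and rose on Samhd1. The fall ran from 2.25-fold for Dck to 4.31-fold for Rrm2, and the rise of Samhd1 was 4.7-fold. Rrm2b, the other small subunit, passed no test. Of all 12113 genes tested at 14 h, 26.3% were called lower and 26.2% higher by edgeR's quasi-likelihood test at an adjusted p under 0.05, and in 23.7% every IFN-β library lay below every vehicle library, as it did for 7 of the 8 synthesis genes. In bulk libraries fewer cells using a gene and fewer footprints per cell cannot be told apart. CPM is relative to the total of each library, so a change in the amount of all footprints together is scaled out. Falls, rises and unchanged levels are therefore given relative to the other genes. The paper reports a strong loss of heavy polysomes and of global protein synthesis after long exposure to IFN-β. The absolute number of footprints on a gene was not tested.

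**Figure D1:**
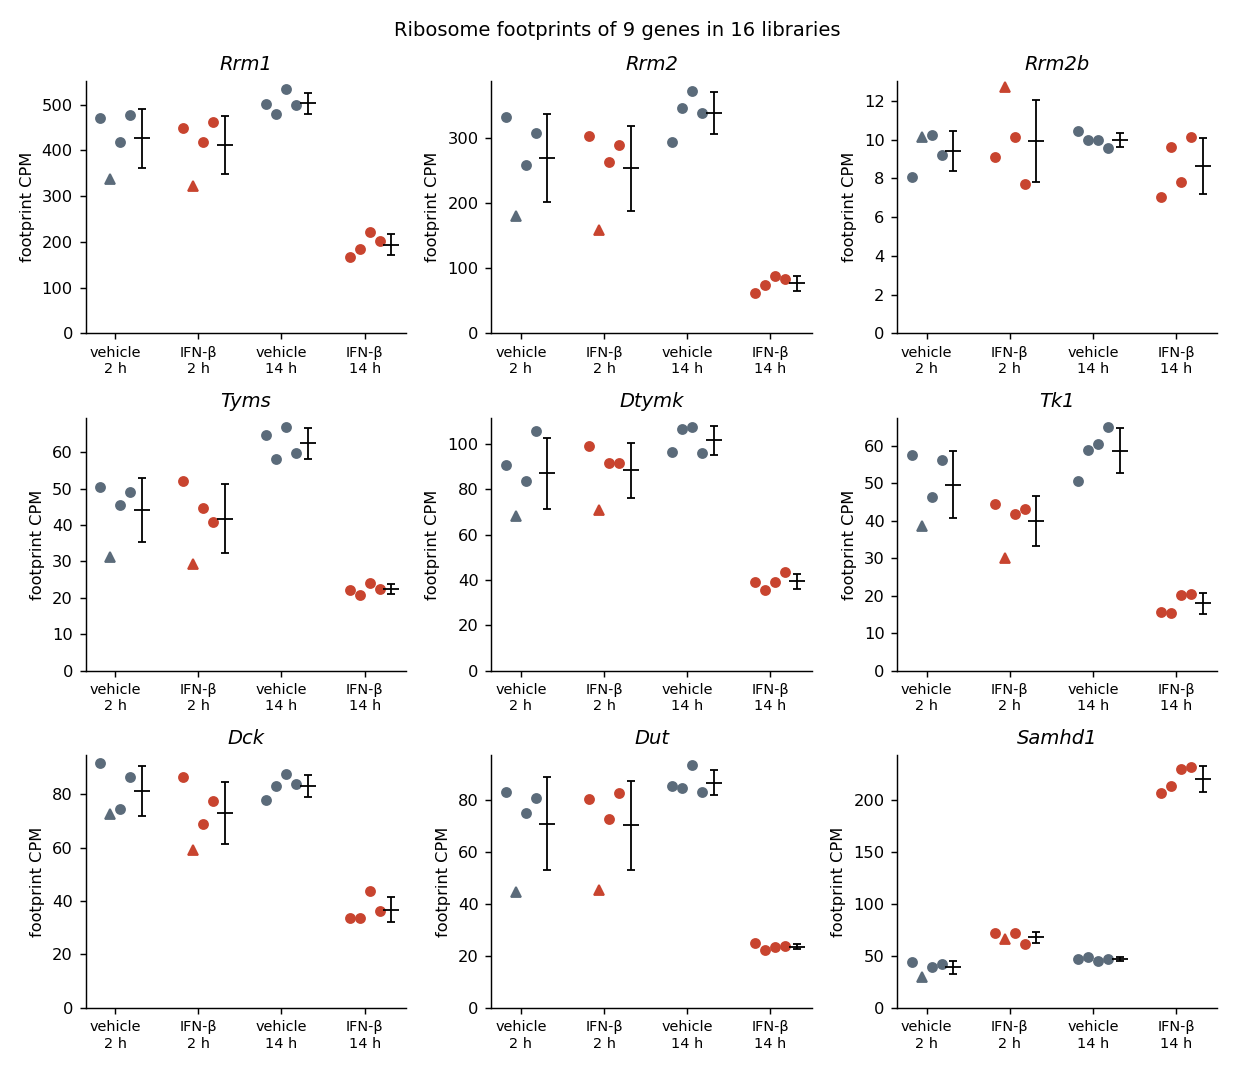
Footprint level of each gene in CPM (linear axes from 0) in the 16 footprint libraries, by group. Points are libraries, triangles are culture number 3 at 2 h, and bars are the mean ± SD of 4 libraries. At 14 h the IFN-β points of 7 synthesis genes lie below all vehicle points, those of Rrm2b overlap them, and those of Samhd1 lie above them.

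Among the subunits of ribonucleotide reductase, Rrm2 had 294.2, 345.8, 371.7 and 338.8 CPM in the vehicle cultures 1 to 4 at 14 h. With IFN-β it had 62.6, 74.4, 88.5 and 84 CPM. Rrm2 was thus lower in all 4 treated libraries, with a log2 fold change of -2.11 (SE 0.098, adjusted p = 1.3e-09) and rank 12055 of 12113 genes from the highest to the lowest. The large subunit Rrm1 had 501.1, 479, 533.3 and 498.6 CPM with vehicle. It had 167.3, 184, 221.6 and 202.4 CPM with IFN-β. The groups did not overlap, and the log2 fold change was -1.37 (SE 0.077, adjusted p = 9.06e-09).

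Rrm2b was read by few footprints, with 57 to 100 counts per vehicle library and 21 to 93 per IFN-β library. Its level was 10.5, 10, 10 and 9.6 CPM with vehicle and 7, 9.6, 7.8 and 10.1 CPM with IFN-β. The groups overlapped, and the log2 fold change of -0.16 (SE 0.13, adjusted p = 0.344) was no larger than the spread between libraries. Per kilobase of coding sequence, Rrm2b made up 3.41% ± 0.42 (SD, n = 4) of the summed Rrm2 and Rrm2b footprints with vehicle at 14 h. With IFN-β it made up 11.7% ± 1.64 (SD, n = 4). Rrm2b thus held a larger share of the small-subunit footprints while its own level overlapped between the groups. The vehicle cultures had a ratio of Rrm2 to Rrm1, both per kilobase, of 1.32 ± 0.12 (SD, n = 4), and the IFN-β cultures one of 0.78 ± 0.034 (SD, n = 4).

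In the thymidylate branch, Dut had 85.3, 84.7, 93.7 and 83.2 CPM with vehicle at 14 h. It had 24.8, 22.4, 23.3 and 23.9 CPM with IFN-β. All treated libraries lay below all vehicle libraries, and the log2 fold change was -1.88 (SE 0.066, adjusted p = 6.68e-11). Tyms had 64.7, 58.2, 67 and 59.6 CPM with vehicle and 22.1, 20.8, 24.2 and 22.4 CPM with IFN-β. Its log2 fold change was -1.47 (SE 0.076, adjusted p = 4.04e-09). Dtymk had 96.3, 106.3, 107.4 and 95.9 CPM with vehicle and between 35.6 and 43.6 CPM with IFN-β. It fell by 1.36 on the log2 scale (SE 0.073, adjusted p = 5.9e-09), again with no overlap.

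Both salvage kinases fell as well. Tk1, whose expression follows S phase in many cells, had 50.6, 58.9, 60.4 and 64.9 CPM with vehicle at 14 h. With IFN-β it had 15.7, 15.5, 20.1 and 20.6 CPM. The log2 fold change of Tk1 was -1.69 (SE 0.11, adjusted p = 3.05e-08). Dck had 77.8, 83.2, 87.4 and 83.8 CPM with vehicle and 33.8, 33.4, 43.7 and 36.2 CPM with IFN-β. Its log2 fold change of -1.17 (SE 0.082, adjusted p = 7.96e-08) was the smallest among the 7 genes that fell.

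Samhd1 had 46.8, 49.2, 45 and 47.4 CPM with vehicle at 14 h. With IFN-β it had 206.8, 214.3, 230 and 232.4 CPM. The log2 fold change was 2.23 (SE 0.06, adjusted p = 3.15e-12). By fold change Samhd1 ranked 218 of 12113 genes. Microglia also express Samhd1, and in the same 14 h libraries the 12 microglia and macrophage markers summed to 38.25 to 42.47 CPM with vehicle and 41.82 to 46.04 CPM with IFN-β. Of the 3 markers tested, P2ry12 rose (log2 fold change 1.62, adjusted p = 5.84e-07), Itgam fell (-0.75, adjusted p = 1.2e-05) and Cd68 was not called (0.49, adjusted p = 0.361).

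Lists of other cell types also moved at 14 h. The 4 ependymal markers summed to 24.94 to 37.97 CPM with vehicle and 76.88 to 99.09 CPM with IFN-β, carried by Foxj1 and Rarres2, while Tmem212 was at 0 in all libraries. The 5 oligodendrocyte markers summed to 97.75 to 126.7 CPM with vehicle and 218.2 to 297.7 CPM with IFN-β, nearly all of it Cnp, while Mag, Mobp and Mog had at most 1 count per group. The part of these in the results above was not tested. Of the 12 stem cell markers 11 were tested at 14 h, and 5 were called lower and 6 were not called. Over all genes 26.3% were called lower. At 2 h all 12 were tested, 2 (Olig2 and Nr2e1) were called lower and 10 were not called, against 2.01% of all genes called lower.

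**Figure D2:**
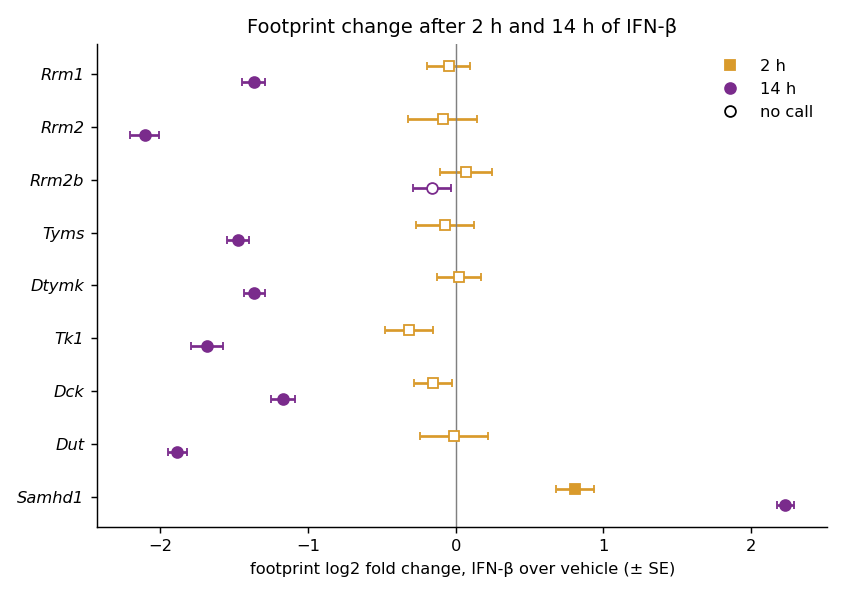
Footprint log2 fold change of each gene (IFN-β over vehicle, edgeR without regard to culture number) after 2 h (squares) and 14 h (circles), with bars for the SE and open symbols where the adjusted p was not under 0.05. At 14 h 7 synthesis genes lie between -1.17 and -2.11 and Samhd1 at 2.23, while at 2 h Samhd1 at 0.81 is the filled symbol.

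At 2 h Samhd1 was the 1 gene of the 9 that was called in the fit without regard to culture number. With the number taken into account Tk1 and Dck were called too, as given below. It had 44.5, 29.3, 39.7 and 41.8 CPM in the vehicle cultures 2, 3, 5 and 6. With IFN-β it had 72.4, 66.1, 71.7 and 61.4 CPM. The rise was 1.75-fold, with a log2 fold change of 0.81 (SE 0.13, adjusted p = 0.00425). The largest difference within a culture number was 1.17 on the log2 scale, in number 3, where the vehicle library was the lowest. Without the cultures numbered 3 the log2 fold change was 0.71 (adjusted p = 0.000151). Of 12104 genes tested at 2 h, 5.25% were called higher and 2.01% lower.

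In the comparison over all 8 libraries without regard to culture number, none of the 8 synthesis genes was called at 2 h by edgeR or DESeq2, and 0 of the 8 reached an unadjusted p under 0.05 in edgeR. Rrm2 had 331.3, 179.7, 258.7 and 307.2 CPM with vehicle and 302.2, 158.6, 262.7 and 288.8 CPM with IFN-β at 2 h, with a log2 fold change of -0.09 (SE 0.23, adjusted p = 0.927). In both groups the culture numbered 3 was the lowest for Rrm1, Rrm2, Tyms, Dtymk, Tk1, Dck and Dut. Its Rrm2 level was 60.1% of the mean of the other 3 vehicle cultures and 55.7% of that of the other 3 treated cultures. The SE of the Rrm2 fold change was 0.23 with these cultures and 0.09 without them.

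The culture numbers were taken to pair the footprint libraries by the correlation of their deviations from the group means. At 2 h the lowest r of a shared number, 0.345, was near the highest of different numbers, 0.336. With the number as a block edgeR called Tk1 and Dck lower at 2 h. With the block 13.4% of the 12104 genes tested were called lower. Tk1 had 57.6, 38.5, 46.4 and 56.2 CPM with vehicle and 44.4, 29.9, 41.9 and 43.2 CPM with IFN-β. It was lower within all 4 numbers, with log2 differences from -0.38 to -0.15. The log2 fold change of Tk1 was -0.31 (SE 0.16, adjusted p = 0.388) without the block and -0.32 (SE 0.07, adjusted p = 0.000896) with it. Dck was lower within all 4 numbers, with -0.15 (SE 0.13, adjusted p = 0.67) without the block and -0.15 (SE 0.059, adjusted p = 0.0491) with it. Without the cultures numbered 3, Tk1 was called with the block (adjusted p = 0.0012) and without it (adjusted p = 0.0441), while Dck was called in neither (adjusted p = 0.174 and 0.509). Without those cultures 12% of 11892 genes were called lower with the block and 5.36% without it. The log2 fold changes of Rrm1, Rrm2, Rrm2b, Tyms, Dtymk and Dut at 2 h lay between -0.09 and 0.07, and none was called with the block.

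The response differed between the times. The difference of the log2 fold changes, 14 h minus 2 h, was tested as an interaction over the 16 footprint libraries, in which 15.5% of 12508 genes were called lower and 15.4% higher. The log2 fold change was lower at 14 h than at 2 h for 7 synthesis genes, none of which was called at 2 h without the block. The difference was -2.02 for Rrm2 (SE 0.28, adjusted p = 5.48e-05), -1.86 for Dut (SE 0.26, adjusted p = 6.33e-05) and -1.01 for Dck (SE 0.16, adjusted p = 0.000255). Tyms, Dtymk, Tk1 and Rrm1 lay between these, from -1.39 to -1.31. Rrm2b showed a difference of -0.24 (SE 0.21, adjusted p = 0.419). For Samhd1 the rise was larger at 14 h, by 1.44 on the log2 scale (SE 0.14, adjusted p = 2.22e-06). The 2 h and 14 h libraries carry partly different culture numbers, so time cannot be told apart from the set of cultures.

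The balance between the 8 synthesis genes and Samhd1 followed from these values and is given without a test. At 14 h the footprints of the 8 genes summed to 1180 to 1331 CPM with vehicle and to 372.4 to 468 CPM with IFN-β. The log2 ratio of Samhd1 to this sum came to -4.72 ± 0.11 (SD, n = 4) in the vehicle cultures and to -0.92 ± 0.076 (SD, n = 4) in the treated ones. In linear terms the synthesis genes together held 24.93 to 29.6 times the footprints of Samhd1 with vehicle and 1.8 to 2.04 times with IFN-β. At 2 h the vehicle cultures had a log2 ratio of -4.74 ± 0.055 (SD, n = 4) and the treated cultures one of -3.85 ± 0.29 (SD, n = 4), and the 2 groups did not overlap. With vehicle, culture number 3 had low Samhd1 and low synthesis genes alike, and its ratio of -4.74 lay among those of the other 3. With IFN-β it had the highest of the 4 ratios, -3.46.

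**Figure D3:**
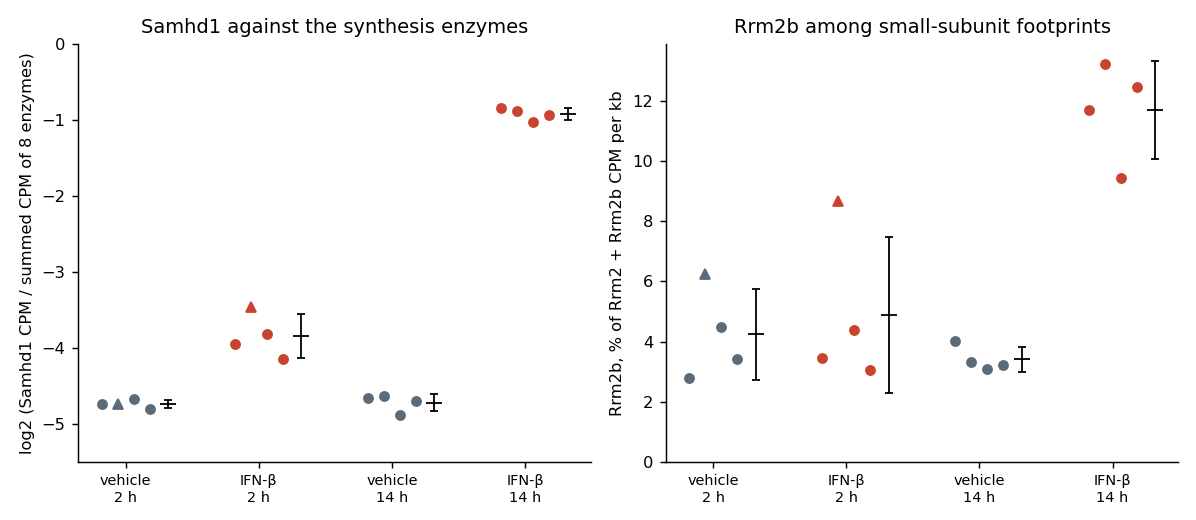
Left, log2 ratio of Samhd1 CPM to the summed CPM of the 8 synthesis genes. Right, Rrm2b as a percent of Rrm2 plus Rrm2b CPM per kilobase of coding sequence. Points are footprint libraries, triangles are culture number 3 at 2 h, and bars are the mean ± SD of 4 libraries. With IFN-β at 14 h the ratio sits near -0.92 against -4.72 with vehicle, and the Rrm2b share near 11.7% against 3.41%.

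Levels of different genes were compared as CPM per kilobase of coding sequence. With vehicle at 14 h the order was Rrm2 (269.9 ± 25.8, SD, n = 4), Rrm1 (205 ± 9.17), Dtymk (144.5 ± 8.88), Dut (140.8 ± 7.65), Dck (106.5 ± 5.12), Tk1 (84 ± 8.53), Tyms (59.8 ± 4.01), Samhd1 (22.8 ± 0.84) and Rrm2b (9.44 ± 0.34). Only Dtymk and Dut overlapped among neighbours in this order. With IFN-β at 14 h Samhd1 came first at 106.9 ± 5.99 (SD, n = 4), above Rrm1 at 79 ± 9.55 and Rrm2 at 61.9 ± 9.18, with Rrm2b last at 8.16 ± 1.38. There Rrm1 and Rrm2, Rrm2 and Dtymk, Dtymk and Dck, and Tk1 and Tyms overlapped, and Samhd1 overlapped with none. With vehicle at 2 h the order of the 9 genes was the same as with vehicle at 14 h, with Samhd1 at 18.8 ± 3.21 (SD, n = 4), and each neighbour from Rrm2 down to Dck overlapped the next. With IFN-β at 2 h the means followed that order again, with Samhd1 at 32.9 ± 2.5 (SD, n = 4), but all neighbours overlapped except Dck with Tk1 and Samhd1 with Rrm2b, so the order within those runs is not set by these libraries.

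Other genes of nucleotide metabolism were read from 5 lists. The counts at 14 h stand against 26.3% of all genes called lower and 26.2% called higher. Of 20 other dNTP and thymidylate enzymes, 18 were tested at 14 h, 14 fell, 3 rose and 1 was not called, with a median log2 fold change of -0.45 against 0.003 over all genes. Shmt1, which loads folate with the carbon unit that Tyms uses, fell by 1.66 on the log2 scale (adjusted p = 2.85e-09) and the dCTP pyrophosphatase Dctpp1 by 1.02 (adjusted p = 3.52e-08). The mitochondrial kinases Tk2 (log2 fold change 0.51, adjusted p = 0.012) and Dguok (0.41, adjusted p = 0.00308) rose. The mitochondrial UMP-CMP kinase Cmpk2, known as an interferon-stimulated gene, rose from 4.05 ± 1.05 to 365.3 ± 44.8 CPM (SD, n = 4), with a log2 fold change of 6.53 (adjusted p = 3.75e-13), and it was also up at 2 h by 5.53 (adjusted p = 1.01e-06).

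Of 8 enzymes of de novo pyrimidine and CTP synthesis, 5 fell, 1 rose and 2 were not called, with a median of -0.62. Umps, which makes UMP (-1.11, adjusted p = 4.2e-08), the CTP synthase Ctps (-1.1, adjusted p = 3.12e-08) and the uridine-cytidine kinase Uck2 (-0.89, adjusted p = 3.2e-07) fell, and Uckl1 rose (0.42, adjusted p = 0.0154). Of 17 enzymes of purine synthesis and salvage, 14 fell, 2 rose and 1 was not called, with a median of -0.55. Ppat, the first committed step of purine synthesis, fell by 1.27 (adjusted p = 2.07e-09), Paics by 0.9 (adjusted p = 6.29e-08) and Prps1 by 0.87 (adjusted p = 6.79e-07) on the log2 scale. Guk1 (0.23, adjusted p = 0.0318) and Prps2 (0.19, adjusted p = 0.0123) rose. At 2 h no enzyme of either list was called.

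Of 17 enzymes that break nucleotides and nucleosides down, 13 were tested at 14 h, of which 3 rose, 3 fell and 7 were not called, with a median of -0.03. The count in each direction was near that over all genes. The uridine phosphorylase Upp1 rose from 21.6 ± 2.08 to 46.8 ± 3.63 CPM (SD, n = 4), a log2 fold change of 1.12 (adjusted p = 2.43e-07), and was up at 2 h by 0.68 (adjusted p = 0.00311). Pnp2, a purine nucleoside phosphorylase, rose by 0.34 (adjusted p = 0.0165) at 14 h and by 0.87 (adjusted p = 0.00103) at 2 h. The nucleotidases Nt5c3b (-0.4, adjusted p = 0.000895) and Nt5c3 (-0.32, adjusted p = 0.00346) fell at 14 h. Of 9 known regulators of ribonucleotide reductase or of Samhd1, 6 fell, none rose and 3 were not called at 14 h, with a median of -1.16. Cdk1, which phosphorylates Samhd1 together with its partner cyclin A, fell by 1.44 (adjusted p = 2.77e-09) on the log2 scale. That cyclin, Ccna2, fell by 1.34 (adjusted p = 7.36e-09), and Ccnf, the F-box protein that marks Rrm2 for degradation, by 1.26 (adjusted p = 1.95e-08). None of these 9 was called at 2 h.

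**Figure D4:**
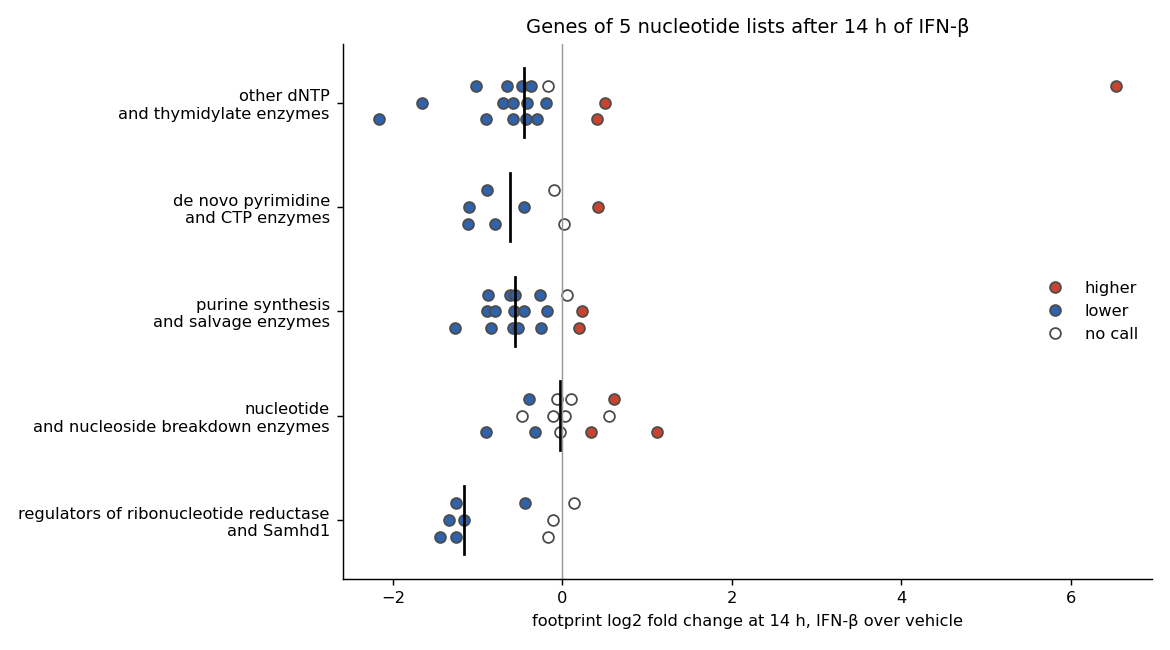
Footprint log2 fold change at 14 h (IFN-β over vehicle) of each tested gene in 5 lists of nucleotide metabolism, coloured by its call, with a black bar at the median of each list. Medians lie at -0.45, -0.62, -0.55, -0.03 and -1.16 from top to bottom, and the point at 6.53 is Cmpk2.

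The genes most like 2 of the members were sought over the 16 footprint libraries, as Pearson's r of log2 CPM relative to the vehicle mean of the same time, among the 10314 genes whose mean count reached 50. The values share libraries and a large difference between groups, so r is a description. Most like Rrm2 were Incenp (r = 0.998), Pcna-ps2 (0.998), Kif23 (0.997), Mcm5 (0.996) and Cdk1 (0.996), which are, apart from the Pcna pseudogene, genes of the cytokinesis machinery, the replicative helicase and the mitotic kinase. At 14 h these 5 fell by 1.44 to 1.84 on the log2 scale. Rrm1 ranked 4 in likeness to Rrm2 with r = 0.996, and the other synthesis genes apart from Rrm2b ranked between 46 and 104, with r from 0.984 to 0.989. Rrm2b had r = 0.34 with Rrm2. Most like Samhd1 were H2-T10 (r = 0.994), Mpeg1 (0.992), Ube2l6 (0.992), Ascc3 (0.991) and Slc12a7 (0.99). H2-T10 belongs to the MHC class I genes, whose near-identical copies can share reads, and Ube2l6 is the conjugating enzyme for ISG15. At 14 h the log2 fold changes were 4.25 for H2-T10, 5.46 for Ube2l6, 2.39 for Ascc3 and 1.73 for Slc12a7. Mpeg1, a gene known from macrophages, had 0, 0, 2 and 0 counts in the vehicle libraries at 14 h and 513, 1397, 1609 and 2480 counts with IFN-β, or 171.6 to 269.7 CPM. At 2 h it had 0 to 2 counts with vehicle and 19 to 35 with IFN-β. Among the microglia and macrophage markers at 14 h, P2ry12 rose (log2 fold change 1.62), Itgam fell (-0.75) and Cd68 was not called. Aif1, C1qa, C1qc, Cx3cr1, Trem2 and Tyrobp were at 0 in these libraries, and the source of the Mpeg1 footprints was not tested.

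The total RNA tables gave few reads for these genes. Rrm1, Rrm2, Rrm2b, Tyms, Dtymk, Dck, Dut and Samhd1 had 0 to 55 counts per library, and Tk1 had 47 to 271. Exons of Tk1 overlap those of Afmid and Gm20708 on the other strand over 83 bases (1.6%). Exons of Rrm2b, which had 0 to 8 counts, overlap those of Gm49085 over 734 bases (8.04%). The part of these overlaps in the counts was not tested. The library kit was directional, and the strand setting of the counting was not given in the sources used here. Over 1430 genes whose exons overlap a gene on the other strand, the total RNA counts at 14 h correlated with the footprints of the opposite gene (Spearman's rho 0.426) more than with their own (0.076), a description across genes, which are not independent replicates. The same held at 2 h (0.453 and 0.098). The counts are therefore given without reading them as the mRNA level of these genes.

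In total RNA, 5 of the 9 genes had enough counts to be tested at 2 h and 2 at 14 h. None was called by edgeR's quasi-likelihood test (0 at an unadjusted p under 0.05) or by DESeq2, and 0.799% of all genes tested were called at 2 h and 6.3% at 14 h. Translational efficiency (TE) is the change in footprints beyond that in total RNA, tested as an interaction at an adjusted p under 0.1. At 2 h none of the 9 was called by edgeR or DESeq2, 1 (Tyms) had an unadjusted p under 0.05, and 0.815% of all genes were called. At 14 h Samhd1 was called higher in TE (log2 2.48, SE 0.42, adjusted p = 0.000315), and Rrm2 (-2.49, SE 0.32, adjusted p = 7.78e-06), Tk1 (-1.41, SE 0.2, adjusted p = 3.9e-05) and Rrm1 (-1.41, SE 0.33, adjusted p = 0.00888) lower, against 8.45% of all genes. The total RNA counts behind these 4 calls at 14 h were 2 to 8 per library for Samhd1, 2 to 26 for Rrm2, 4 to 17 for Rrm1 and 47 to 195 for Tk1, and the limit given above for total RNA holds for the TE values.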

How the data were processed

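Footprints and total RNA were sequenced for 32 libraries, 4 per group. Per the study's methods, the authors trimmed reads, mapped them with bowtie to the mouse mm10 transcriptome, removed duplicates and counted reads per gene. The submitters' processing notes name Trim Galore 0.4.4 and Bowtie 0.12.7. The deposited values are raw counts, in the coding sequence for footprints and over the gene for total RNA. The strand setting is not given in the sources used here. Removal of duplicates can compress counts of highly read short fragments. No column was left out (0).

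A gene entered a test when 4 or more libraries of the comparison held 10 or more counts of it. The tool was edgeR 4.0.16 in R 4.3.3 (TMM, quasi-likelihood, two-sided, Benjamini-Hochberg over all genes tested), calling at an adjusted p under 0.05 and, for TE, under 0.1. DESeq2 1.42.0, library totals without TMM, no filter, a mean of at least 50 counts, a replicate block and leaving out each library were the alternatives, and leaving out culture number 3 at 2 h was added after seeing the data. The likeness measure used a pseudocount of 0.5 CPM. The fits were run on simulated data with known changes, drawn without pairing of cultures and without a culture that stands apart. The outcome is not given here.

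Members and lists were chosen with earlier results of these data known. Named genes were all 9 members, and per list the 3 called genes with the largest rise and the 3 with the largest fall at 14 h among those with a mean of at least 50 counts, any list gene called at 2 h, and the 5 genes most like Samhd1 and Rrm2. A gene that this rule named is not reported here. Same-numbered vehicle and IFN-β footprint libraries deviated together (r of 0.345 to 0.821 at 2 h and 0.203 to 0.434 at 14 h). The r of 0.821 was that of number 3. Between different numbers r reached 0.336 at 2 h, near the lowest r of a shared number, and 0.116 at 14 h. The numbers were taken to pair the footprint libraries. For total RNA r of shared numbers was -0.483 to 0.389 at 2 h and -0.00983 to 0.246 at 14 h, and the numbers were not taken to pair those libraries. The main fits did not use this pairing. Fold changes, SE and adjusted p are from fits without the block unless the block is named. Symbols and positions came from GENCODE M21, promoters from RefSeq (GRCm38.p6). Python 3.11.15 with pandas 2.3.3 and matplotlib 3.10.9 was used for summaries and figures.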

Additional observations from a re-analysis of the deposited data

Results flagged for a closer look

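The response to IFN-β differed between 2 h and 14 h for 8 of the 9 genes by the interaction test. In that test 15.5% of 12508 genes were called lower and 15.4% higher. The culture numbers differ in part between the times, so time cannot be told apart from the set of cultures. The difference in log2 fold change, 14 h minus 2 h, was -2.02 for Rrm2, -1.86 for Dut, -1.39 for Tyms, -1.38 for Dtymk, -1.37 for Tk1, -1.31 for Rrm1, -1.01 for Dck and 1.44 for Samhd1.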

How the results depend on the processing

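None of the values changed direction past the threshold. With the replicate block 3 of the 9 genes were called in footprints at 2 h, against 1 without it, as Tk1 and Dck joined Samhd1. With culture number 3 left out at 2 h, 2 were called with the block and 2 without it (Samhd1 and Tk1), a setting chosen after seeing the data. With a mean of at least 50 counts 1 gene was called in TE at 14 h, against 4, since Tk1 alone was tested. The replicate block changed no other call on the 9 genes. The counts of the 9 genes called in each comparison did not move when each library was left out in turn. With single libraries left out or other settings, the log2 fold change at 14 h ranged from 2.22 to 2.26 for Samhd1, from -2.17 to -2.03 for Rrm2 and from -0.24 to -0.1 for Rrm2b. Depth limits Rrm2b, with 21 to 100 footprint counts per library at 14 h, and the total RNA of all members but Tk1. Over all genes, the count of calls in footprints at 2 h was 878, rising to 3538 with the block and to 1671 without culture number 3, and falling to 563, 517 and 575 without the IFN-β libraries 2, 5 and 6. For 14 h minus 2 h it was 3867 and 6944 with the block, and 6666 with the block and without culture number 3. The share of calls at 2 h that were higher went from 72.3% to 54.3% with the block and to 61.8% without culture number 3. In total RNA the counts were 93 at 2 h and 474 at 14 h, and ranged over the alternatives from 30 to 174 and from 171 to 694. In TE at 2 h the count was 115 and ranged from 27 to 250, and at 14 h it was 1136, and 380 where the mean count had to reach 50. Library totals without TMM moved the median over all genes by more than 0.1 in total RNA at 2 h (from 0.04 to 0.23), in total RNA at 14 h (from -0.0125 to 0.0946) and in TE at 2 h (from -0.04 to -0.38), with no call on the 9 genes in any of these.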
